A study of Mus musculus with 2 samples.

Results

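Granzymes are serine proteases that cytotoxic lymphocytes store in granules and release onto a target cell, and perforin forms the pores through which they enter it. Fas ligand is a second route to the same end, a surface protein that engages the death receptor Fas on the target and starts a caspase cascade. Transcripts of 8 genes of these 2 routes were followed by single-cell RNA sequencing in J558 tumours: the granzymes Gzma, Gzmb, Gzmc and Gzmk, the pore protein Prf1, the granule membrane protein Nkg7, the ligand Fasl and its receptor Fas. They were taken by symbol from the 32285 features of the matrices, and all 8 members were found. J558 is a mouse plasmacytoma line, and the cells were grown under the skin of female BALB/c mice, the strain the line comes from. The vehicle group received 0.5% methylcellulose by mouth and the TAK-931 group received 60 mg/kg of TAK-931, an inhibitor of the replication kinase CDC7, once daily for 6 days. There was 1 library in each group, so no spread between animals could be measured, no test between the groups was made, and every interval given is a 95% interval that covers counting error only.

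In the annotated mouse genome (GRCm38), Gzmb (ENSMUSG00000015437) lies at chr14:56258838-56262260 and Gzmc (ENSMUSG00000079186) at chr14:56231441-56234656, both on the minus strand, with 24.181 kb between them. They belong to a run of 7 granzyme genes, with Gzmd, Gzme, Gzmf, Gzmg and Gzmn, that spans 144.635 kb. Gzma (ENSMUSG00000023132, chr13:113093825-113100981) and Gzmk (ENSMUSG00000042385, chr13:113171608-113225908) are neighbours on another chromosome, 70.626 kb apart. The other members lie alone, with Prf1 (ENSMUSG00000037202) at chr10:61297833-61304680, Nkg7 (ENSMUSG00000004612) at chr7:43437073-43438249, Fasl (ENSMUSG00000000817) at chr1:161780689-161788495 and Fas (ENSMUSG00000024778) at chr19:34290666-34327772. Near-identical genes could share reads, so the annotated transcripts were compared: none of the windows of 90 bases in Gzma, Gzmb, Gzmc or Gzmk occurred in another of the 10 granzymes, whereas Gzmd shared runs of 96 bases with Gzme and 101 bases with Gzmg, and the counts of these 3 genes are less certain.

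The 250 bases upstream of the RefSeq start of 4 members (build GRCm38.p6) are shown because Gzmc and Prf1 were more frequent in Gzmb-positive than in Gzmb-negative CD8 T cells and Gzmk was not. Each is written 5′ to 3′ on the strand of its gene, at chr14:56262335-56262584 for Gzmb, chr14:56234658-56234907 for Gzmc, chr10:61297586-61297835 for Prf1 and chr13:113180966-113181215 for Gzmk. Capitals mark TGTGGT, the core letters bound by Runx factors, and TCACAC, those bound by T-box factors such as T-bet and Eomes, on either strand, and the marked runs do not overlap.
Gzmb: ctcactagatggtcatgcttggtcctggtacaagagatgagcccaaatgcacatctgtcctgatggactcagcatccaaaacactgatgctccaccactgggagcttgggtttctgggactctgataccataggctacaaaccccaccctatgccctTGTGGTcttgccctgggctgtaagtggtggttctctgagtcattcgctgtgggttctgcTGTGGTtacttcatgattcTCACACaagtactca
Gzmc: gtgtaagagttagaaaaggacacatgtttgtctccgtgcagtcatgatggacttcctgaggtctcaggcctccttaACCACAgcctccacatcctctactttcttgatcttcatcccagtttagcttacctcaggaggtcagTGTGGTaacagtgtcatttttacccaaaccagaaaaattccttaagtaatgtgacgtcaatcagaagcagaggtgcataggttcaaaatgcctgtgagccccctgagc
Prf1: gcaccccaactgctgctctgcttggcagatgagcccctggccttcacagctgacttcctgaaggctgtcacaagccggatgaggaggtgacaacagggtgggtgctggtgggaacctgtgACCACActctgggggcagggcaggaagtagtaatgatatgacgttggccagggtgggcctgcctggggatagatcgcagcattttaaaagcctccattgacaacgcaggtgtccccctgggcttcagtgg
Gzmk: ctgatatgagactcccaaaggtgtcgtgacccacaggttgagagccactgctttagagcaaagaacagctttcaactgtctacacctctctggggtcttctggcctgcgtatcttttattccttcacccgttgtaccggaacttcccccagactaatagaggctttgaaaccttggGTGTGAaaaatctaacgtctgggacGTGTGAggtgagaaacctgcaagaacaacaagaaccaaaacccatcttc
The Runx letters began 93 and 34 bases before the start of Gzmb and the T-box letters 15 bases before it. Gzmc held the Runx letters at 174 and 108 bases and Prf1 at 130 bases, while Gzmk held the T-box letters at 74 and 49 bases and no Runx letters. The Gzmk window lies inside the interval given above for that gene, so the annotations place the Gzmk start differently. The letters found for Gzmk depend on the start used. Of the members not shown, Gzma held the Runx letters at 50 bases, Nkg7 the Runx letters at 83 and the T-box letters at 12 bases, and Fasl and Fas held neither. Of all 8 members, 5 held the Runx letters and 3 the T-box letters, against 14.05% and 12.3% of 32851 promoters of the same length. The 4 sequences were picked by co-detection in these same data, and a link between the letters and co-detection was not tested. A match of letters is a description and does not show binding.

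Cells with over 2000 genes and under 15% mitochondrial counts were kept, which left 3441 cells from the 4565 barcodes of the vehicle library and 3488 from the 6558 of the TAK-931 library, with median depths of 40504 and 15097 UMIs per cell, a UMI being the molecular tag by which each captured transcript is counted once. The libraries shared 8 barcodes. Cells were gated by marker lists that hold none of the 8 members. The gates held 7 vehicle and 488 TAK-931 CD8 T cells, 0 and 11 CD4 T cells, 3 and 101 regulatory T cells, and 5 and 72 NK cells. Macrophage gates held 206 and 2023 cells and J558 gates 2937 and 104 cells. In the TAK-931 CD8 T gate the 5 T cell markers summed to 6263 CPM (UMIs scaled to a common total of counts) and the 6 macrophage markers to 161 CPM, and all markers of both lists were above 0. The 5 NK markers summed to 223 CPM in that gate, with Eomes in 75%, Klre1 in 33.2% and Ncr1 in 0.615% of cells. T cells that also reached the NK list were kept as T cells. The NK gate had Ncr1 in 81.9% and Klre1 in 84.7% of cells, but also Trbc2 in 55.6%, so cells of mixed NK and T character were not told apart there.

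Over all kept cells, all 8 members were past 2-fold higher in the TAK-931 library, where 37.3% of all genes counted were. Gzmb stood at 2.13 CPM in vehicle and 164 CPM in TAK-931, a 77.2-fold difference, Prf1 at 0.936 and 53.6 CPM, and Gzma at 9.07 and 247 CPM. The smallest difference was that of Gzma, 27.3-fold, and the largest that of Gzmk, 140-fold. Over all barcodes, before the filter on genes and mitochondrial counts, the differences were smaller, between 18.6-fold (Gzma) and 78.3-fold (Gzmk), with Gzmb at 39.7-fold, and the filter removed 53.3% of the Gzmb UMIs in vehicle and 16.3% in TAK-931. These values combine the number of lymphocytes with the transcripts in each, and the gates separate these quantities only for UMIs inside the T and NK gates. In the vehicle library these gates held between 45.04% (Gzma) and 86.4% (Gzmk) of the UMIs of the 7 effector members. Of the vehicle Gzma UMIs, 28.4% lay in ungated cells and 26.3% in the J558 gate. In the TAK-931 library the T and NK gates held between 70.9% (Gzma) and 89.3% (Gzmk) of the UMIs of the 7 effector members but 12.4% of those of Fas.

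The members divided the TAK-931 lymphocytes by type. Gzma, a tryptase-like granzyme, was highest in the NK gate, at 9829.9 CPM (9641 to 10022) in the NK gate, 182 CPM (173 to 190) in the CD8 T gate and 9.09 CPM (5.09 to 14.99) in the regulatory T gate. Gzmk, which has related specificity, had the reverse order between NK and CD8 T cells, at 58.3 CPM (44.6 to 74.9) in the NK gate, 131 CPM (124 to 139) in the CD8 T gate and 4.85 CPM (2.09 to 9.55) in the regulatory T gate. Gzma was 54.1-fold higher and Gzmk 2.25-fold lower in NK than in CD8 T cells. The size of the Gzma difference moved with the limit on genes per cell: with cells of over 500 genes kept Gzma was 31.97-fold higher, and among the barcodes of over 500 and at most 2000 genes alone it stood at 12192 CPM in the NK gate and 2099 CPM in the CD8 T gate, where 38.5% of 179 barcodes held a UMI. Gzmk was 3.14-fold lower with cells of over 500 genes kept.

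**Figure D1:**
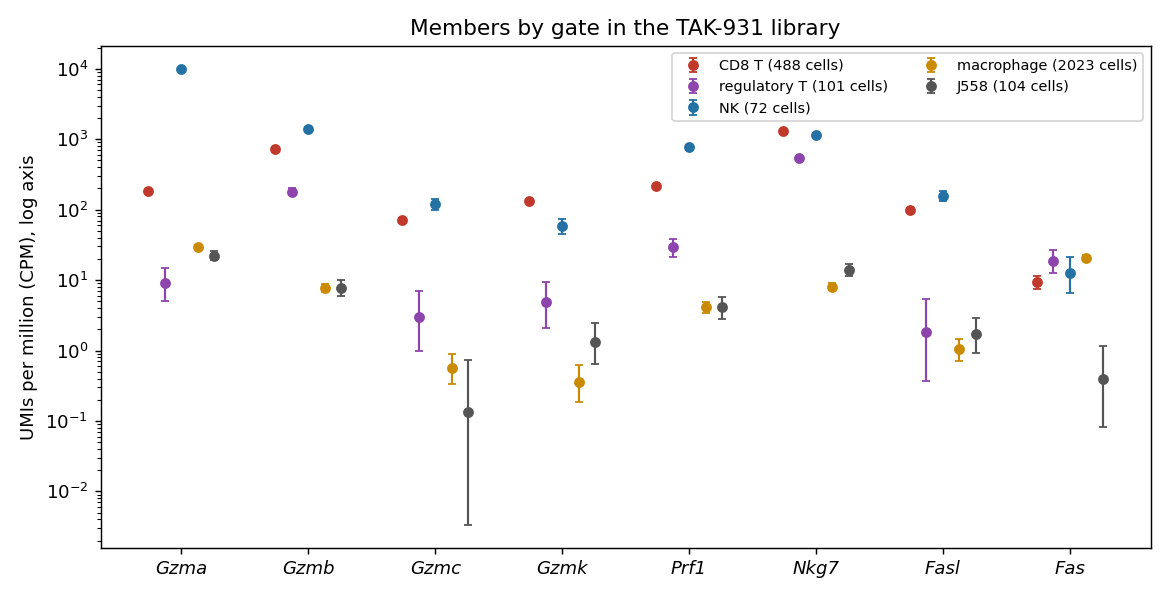
CPM of each member (log axis) in 5 gates of the TAK-931 library, with exact Poisson 95% intervals; points at 0 are not drawn. Gzma stands far above the other gates in NK cells (9829.9 CPM), Fasl in regulatory T cells (1.82 CPM) lies near the macrophage and J558 values, and Fas is lowest in J558 cells (0.397 CPM).

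Gzmb, a granzyme that cleaves caspases, was at 1409.7 CPM (1339 to 1484) in the NK gate, 738 CPM (720.3 to 755) in the CD8 T gate and 179 CPM (159 to 201) in the regulatory T gate. Prf1 followed the same order, at 764 CPM (712 to 818), 216 CPM (207 to 226) and 29.1 CPM (21.4 to 38.6). The intervals of the 3 gates did not overlap for either gene. Gzmc, a granzyme of strongly activated killer cells, was at 119 CPM (98.6 to 141) in the NK gate, 70.9 CPM (65.6 to 76.4) in the CD8 T gate and 3.03 CPM (0.983 to 7.07) in the regulatory T gate. However, 1 NK cell held 34.7% of the Gzmc UMIs of its gate. Without the top cell of each gate Gzmc was at 79.6 CPM in NK and 62.3 CPM in CD8 T cells.

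Nkg7, which takes part in granule release, was the effector member most alike among the gates, at 1312 CPM (1289 to 1335) in the CD8 T gate, 1167 CPM (1102 to 1234) in the NK gate and 549.98 CPM (515 to 587) in the regulatory T gate. Fasl was at 158 CPM (135 to 184) in the NK gate and 99.4 CPM (93.1 to 106) in the CD8 T gate, and had 3 UMIs in all 101 regulatory T cells, or 1.82 CPM (0.375 to 5.31). Of the 8 members, 2 were past 2-fold higher and 1 lower in NK than in CD8 T cells, where 8.65% of all genes counted were past 2-fold higher and 12.7% lower. In regulatory T against CD8 T cells 7 members were lower and 1, Fas, was higher, where 11.2% of genes were lower and 9.38% higher.

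Detection at a matched depth gave the same division. Each cell was thinned to 4000 UMIs and the share of cells expected to keep a UMI was computed over all possible draws. Gzmb was found in 60.3% (55.8 to 64.7) of CD8 T cells, 34.9% (25.7 to 45.002) of regulatory T cells and 82.3% (71.5 to 90.3) of NK cells. In the macrophage, dendritic, J558, endothelial and fibroblast gates, which should lack the gene, the share was 1.42% to 2.06%, at full median depths of 14759 UMIs in macrophages and 14656 UMIs in CD8 T cells. Without thinning the shares were 74.4%, 55.4% and 90.3% in CD8 T, regulatory T and NK cells.

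For the regulatory T gate only some members stood above that background. Nkg7 was found in 55.9% of regulatory T cells against 1.42% to 3.92% in the gates that should lack it, and Prf1 in 5.63% (2.03 to 12.1) against 0.523% to 1.13%. Gzma (2.81%) and Fasl (0.578%) lay within the background ranges of 0.562% to 3.66% and 0.294% to 1.71%, and Gzmk (0.903%) within 0 to 0.930%, so by share neither granzyme nor the ligand stood above background there. By CPM Gzmk was at 4.85 (2.09 to 9.55), against 0 to 2.38 in the gates that should lack it. That level rested on 8 UMIs, 50% of them in 1 cell. Gzmc, at 1.03% against 0 to 0.276%, rested on 5 UMIs in the gate.

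The CD4 T gate was too small for a level of its own. All 105 UMIs of Gzma in its 11 cells came from 1 cell, and Gzmb had 5 UMIs in 3 cells, or 40.3 CPM (13.1 to 93.9). Another 50 T cells had no subset marker or markers of both subsets, and there Gzmb was at 291 CPM (261 to 325).

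**Figure D2:**
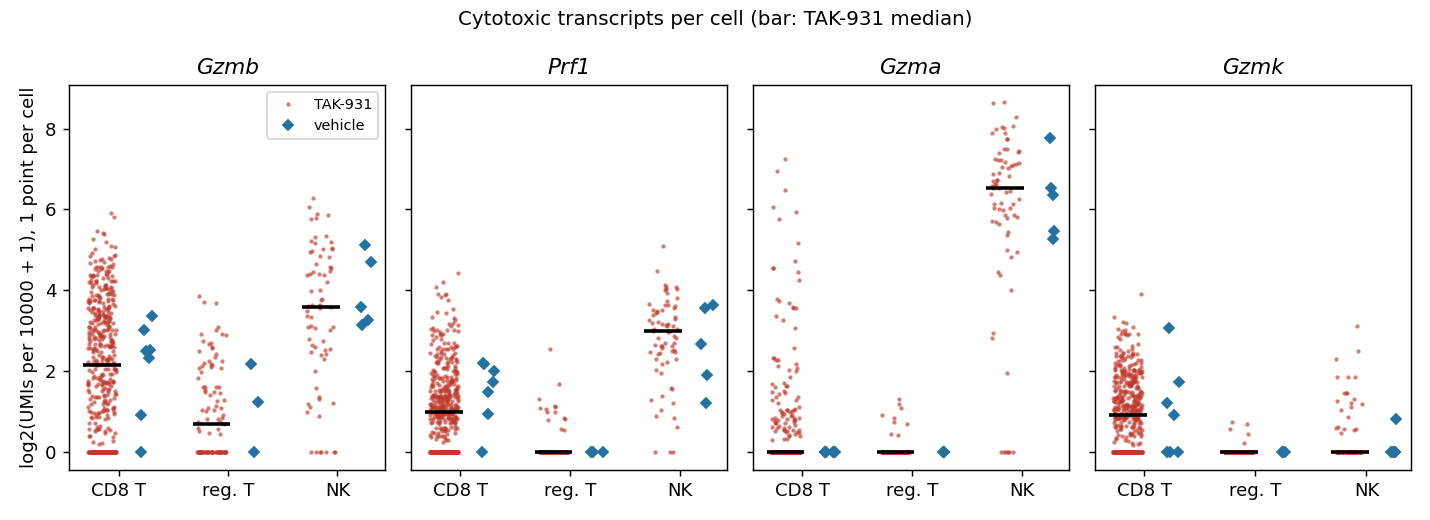
Each point is 1 cell, at log2(UMIs per 10000 + 1), for 4 members in the CD8 T, regulatory T and NK gates; red points are TAK-931 cells with their median as a bar and blue diamonds are vehicle cells. The Gzma median lies at 0 in CD8 T cells and at 91.6 UMIs per 10000 in NK cells, while a few CD8 T cells reach NK values.

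The spread among cells differed between members. In CD8 T cells Gzmb had a median of 3.49 and a highest value of 59.1 UMIs per 10000, and 48 of the 488 cells held 50% of its UMIs. Fasl was spread more evenly, with 50% of its UMIs in 95 cells. Gzma was the least even: 4 cells held 50% of its UMIs, the top cell alone 22.1%, and the level was 142 CPM without that cell.

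The other granzymes of the chromosome 14 run, apart from Gzmn with 2 UMIs in the TAK-931 CD8 T gate, were also found in CD8 T cells. In the TAK-931 CD8 T gate Gzme was at 325 CPM, Gzmd at 311 CPM, Gzmf at 205 CPM and Gzmg at 16.1 CPM, with 50% of the UMIs of Gzmd in 10 cells and of Gzmf in 9 cells. In the regulatory T gate Gzmd, Gzme and Gzmg had no UMI. In the NK gate Gzmd was at 148 CPM, with 77.4% of its UMIs in 1 cell. At least 1 of Gzmc, Gzmd, Gzme, Gzmf and Gzmg was found in 25.6% (21.8 to 29.8) of CD8 T cells at the matched depth.

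Co-detection within single CD8 T cells was then examined in the TAK-931 library, again over all draws at 4000 UMIs. Perforin was found with Gzmb: Prf1 was present in 48.2% (42.3 to 54.0) of Gzmb-positive and 21.6% (16.0 to 28.0) of Gzmb-negative cells. Gzmc was present in 11.6% (8.14 to 15.8) and 0.935% (0.0965 to 3.53). Of the other granzymes of the run, Gzmd was present in 24.9% and 3.74%, Gzme in 29.2% and 6.20%, Gzmf in 15.7% and 1.55% and Gzmg in 5.47% and 0.332%, with intervals that did not overlap, and the same held for Gzmc and Prf1. Of 11174 genes with at least 10 UMIs in these cells, 0.421% were more frequent in Gzmb-positive and 0.215% in Gzmb-negative cells by that criterion. At least 1 of the 5 genes from Gzmc to Gzmg, Gzmn left out, was found in 36.7% (31.2 to 42.5) of Gzmb-positive and 8.80% (5.21 to 13.7) of Gzmb-negative cells. The full depth of the cells also differed, with medians of 16493 UMIs in Gzmb-positive and 12438 UMIs in Gzmb-negative cells, and its part in these shares was not tested.

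Gzmk did not follow Gzmb. It was present in 34.1% (28.7 to 39.8) of Gzmb-positive and 36.7% (29.95 to 43.96) of Gzmb-negative CD8 T cells, and the intervals overlapped widely. Both genes were found in 20.5% of CD8 T cells, Gzmb alone in 39.7%, Gzmk alone in 14.6% and neither in 25.1%. In terms of the product of the single shares, Gzmb with Prf1 was found 1.28 times as often as independence gives and Gzmc with Prf1 1.80 times. Gzmb with Gzmk was found 0.970 times as often, Gzmk with Prf1 0.801 times and Gzmk with its neighbour Gzma 1.46 times. Fasl differed less between Gzmb-positive and Gzmb-negative cells, at 39.0% (33.4 to 44.8) and 29.0% (22.7 to 35.9), and Nkg7 was near its ceiling in both, at 98.5% and 93.8%.

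**Figure D3:**
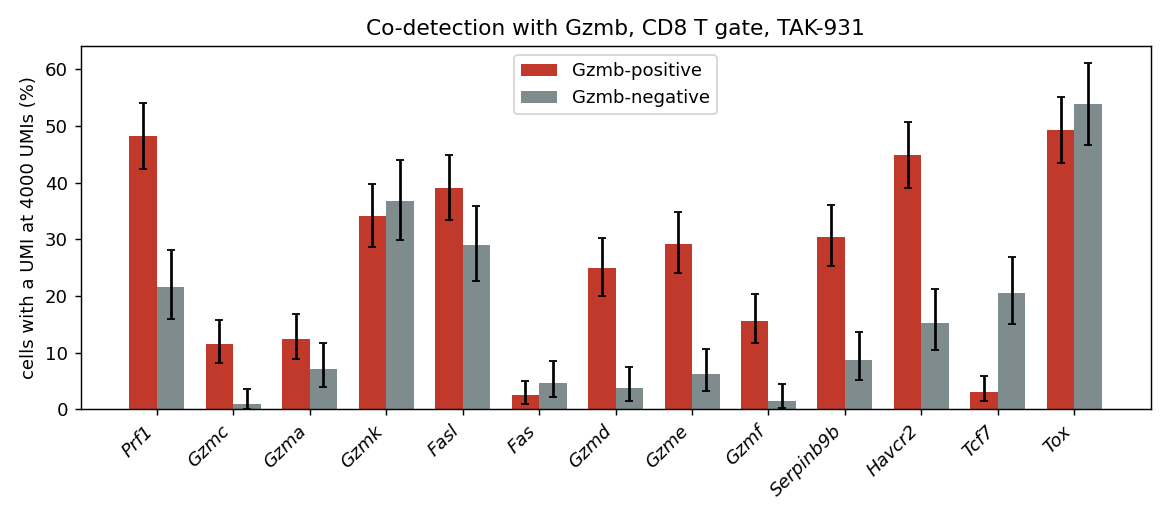
Share of TAK-931 CD8 T cells with a UMI of each gene at 4000 UMIs, for Gzmb-positive (red) and Gzmb-negative (grey) cells, with Clopper-Pearson 95% intervals. Prf1 (48.2% and 21.6%) and Havcr2 (44.9% and 15.3%) are more frequent in Gzmb-positive cells, Tcf7 (3.15% and 20.5%) is less frequent, and Gzmk and Tox are similar.

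Genes of T cell state divided with Gzmb as well. Tcf7, a factor of naive and stem-like T cells, was present in 3.15% (1.47 to 5.84) of Gzmb-positive and 20.5% (15.1 to 26.9) of Gzmb-negative CD8 T cells. Havcr2, the inhibitory receptor TIM-3, was present in 44.9% (39.1 to 50.7) and 15.3% (10.6 to 21.2). Tox, a factor of exhausted T cells, was present in 49.2% (43.4 to 55.1) and 53.9% (46.6 to 61.0), with overlapping intervals. The list of granzyme inhibitors, which shield a killer cell from its own granzymes, holds 4 genes, and the intervals of Gzmb-positive and Gzmb-negative cells did not overlap for 3 of them, where they did not overlap in that direction for 0.421% of all genes counted. These were Serpinb6b at 79.6% (74.5 to 84.0) and 57.9% (50.6 to 64.9), Serpinb9 at 71.7% (66.2 to 76.8) and 50.7% (43.5 to 58.0) and Serpinb9b at 30.4% (25.2 to 36.03) and 8.77% (5.19 to 13.7). Serpinb6a was at 47.5% (41.7 to 53.4) and 36.9% (30.1 to 44.1), with overlapping intervals.

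NK cells carried more of the set per cell. Of the 5 genes Gzma, Gzmb, Gzmk, Prf1 and Fasl, 4 or 5 were found in 39.6% and 5.83% of NK cells, against 5.21% and 0.413% of CD8 T cells. None of the 5 was found in 1.30% of NK cells, 13.4% of CD8 T cells and 59.8% of regulatory T cells. In regulatory T cells Prf1 was present in 8.40% (1.74 to 22.8) of Gzmb-positive and 4.15% (0.778 to 12.2) of Gzmb-negative cells, and the intervals overlapped.

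The comparison with vehicle rests on few vehicle lymphocytes. The 7 vehicle CD8 T cells had a lowest, median and highest Gzmb of 0, 4.63 and 9.32 UMIs per 10000, and the corresponding TAK-931 values were 0, 3.49 and 59.1, so the ranges overlapped. Summed over cells, Gzmb was at 419 CPM (303 to 564) in vehicle and 738 CPM in TAK-931, a log2 ratio of 0.82 (0.39 to 1.28). The ratio was 0.23 when cells with over 1000 genes were kept and 0.29 with over 500 genes. By share the order was the other way: at 4000 UMIs Gzmb was found in 71.0% (28.7 to 96.2) of vehicle and 60.3% (55.8 to 64.7) of TAK-931 cells, with overlapping intervals. Gzmk and Prf1 had log2 ratios of −0.25 (−0.95 to 0.56) and −0.28 (−0.83 to 0.32), whose intervals included 0. Without the top cell of each library the Gzmk ratio was 0.57, and 1 vehicle cell held 50% of its 16 UMIs.

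Nkg7 was lower in the TAK-931 CD8 T cells, at 1938 and 1312 CPM, a log2 ratio of −0.56 (−0.77 to −0.35), where the median gene with at least 50 UMIs in each sum stood at −0.13. Fasl was at 97.4 and 99.4 CPM, a log2 ratio of 0.03 (−0.86 to 1.09). Gzma and Gzmc had no UMI in the vehicle CD8 T cells. Their TAK-931 levels were 6.22-fold and 2.43-fold above a floor of 3 UMIs over the vehicle gate. The lower limits of the exact intervals were log2 ratios of 2.34 and 0.98. These values cover counting error only: in TAK-931, 19.5% and 16.0% of CD8 T cells held a UMI of Gzma and Gzmc, and 7 vehicle cells are too few to bound a difference. These 2 of 8 members were past 2-fold in either direction, where 35% of all genes counted were, so the count is no result about the members.

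**Figure D4:**
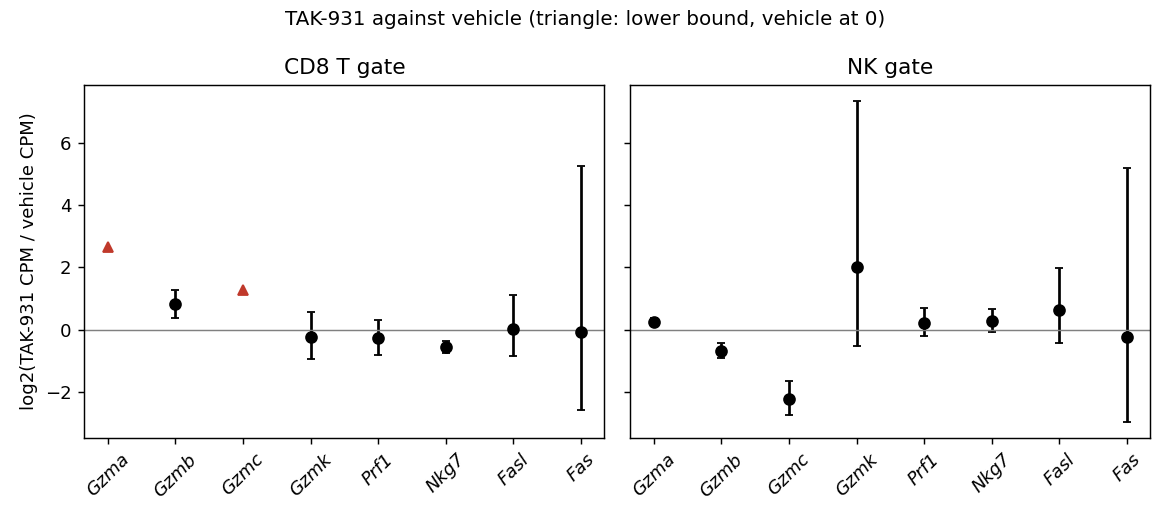
Log2 of CPM in TAK-931 over CPM in vehicle, by member, in the CD8 T and NK gates, with exact 95% intervals for counting error. Triangles are bounds on a floor of 3 UMIs over the gate where vehicle had no UMI. Gzmb lies above 0 in the CD8 T gate (0.82) and below 0 in the NK gate (−0.68).

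In NK cells the 5 vehicle cells had Gzmb values of 8.56, 33.8, 24.98, 11.1 and 7.87 UMIs per 10000 and Gzma values of 43.6, 80.3, 37.5, 91.8 and 215. The TAK-931 NK medians, 11.1 for Gzmb and 91.6 for Gzma, lay within these ranges. The summed Gzmb was 2264 CPM in vehicle and 1409.7 CPM in TAK-931, a log2 ratio of −0.68 (−0.92 to −0.44), but 68.6% of the vehicle UMIs came from 1 cell and the ratio without the top cell of each library was 0.047. The median NK log2 ratio was −0.46 for the 191 genes that reached 50 UMIs in both libraries and 0.47 for all 7363 genes counted. Gzma had a log2 ratio of 0.23 (0.11 to 0.36), and −0.21 when cells with over 1000 genes were kept.

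Gzmc was lower in TAK-931 NK cells, at 551 and 119 CPM, a log2 ratio of −2.22 (−2.75 to −1.65), with all 38 vehicle UMIs in 2 of the 5 cells. Gzmk was at 14.5 CPM in vehicle, from 1 UMI, and 58.3 CPM in TAK-931, a log2 ratio of 2.01 (−0.53 to 7.33). In the NK gate 1 member was past 2-fold higher and 1 lower, where 30.4% and 7.37% of all genes counted were. Prf1, Nkg7, Fasl and Fas had intervals that included 0.

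Fas, the receptor on the receiving side, had another distribution. Among TAK-931 gates it was highest in fibroblasts at 30.0 CPM (23.0 to 38.4), followed by endothelial cells at 23.9 CPM (19.1 to 29.6), macrophages at 20.8 CPM (19.3 to 22.4), dendritic cells at 18.9 CPM (10.1 to 32.4) and regulatory T cells at 18.8 CPM (12.8 to 26.7). Each interval overlapped its neighbour in this order, while those of fibroblasts and macrophages did not overlap. Fas was at 9.26 CPM (7.41 to 11.4) in CD8 T cells, below the macrophage interval. In J558 cells it was nearly absent, with 3 UMIs in 104 TAK-931 cells, or 0.397 CPM (0.0818 to 1.16), and 5 UMIs in 2937 vehicle cells, or 0.0381 CPM (0.0124 to 0.0889).

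**Figure D5:**
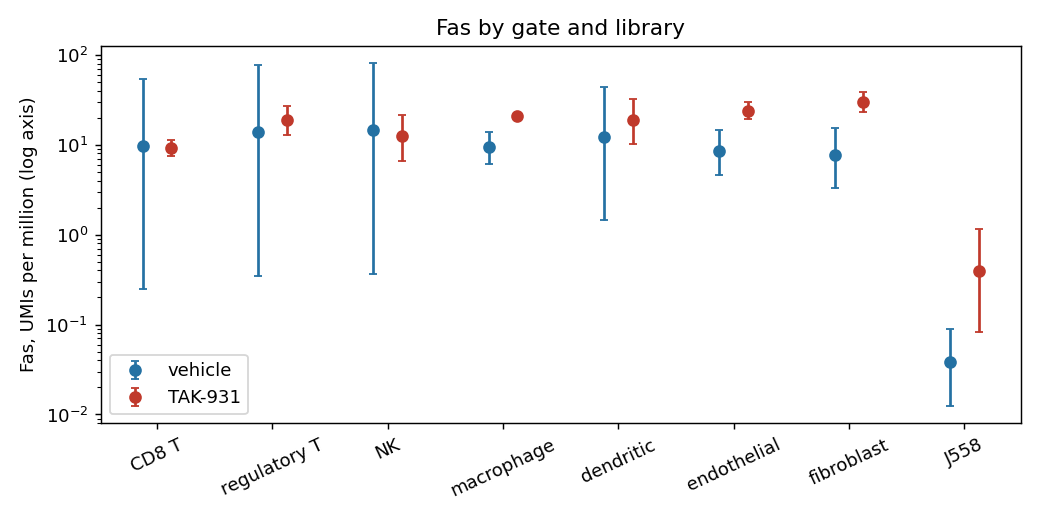
Fas CPM (log axis) by gate in the vehicle (blue) and TAK-931 (red) libraries, with exact Poisson 95% intervals. The macrophage, endothelial and fibroblast points are higher in TAK-931, and the J558 points are the lowest in both libraries.

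Between the libraries Fas was higher in TAK-931 in the macrophage, endothelial and fibroblast gates. It was at 9.47 CPM in vehicle and 20.8 CPM in TAK-931 macrophages, a log2 ratio of 1.14 (0.56 to 1.77). In endothelial cells the ratio was 1.48 (0.63 to 2.44) and in fibroblasts 1.95 (0.89 to 3.23), while in dendritic cells the interval of 0.65 (−1.49 to 3.84) included 0. Among genes that reached 50 UMIs in both libraries the median log2 ratio was −0.11 in macrophages, −0.25 in endothelial cells and −0.23 in fibroblasts. The J558 ratio of 3.38 (0.69 to 5.74) rests on 8 UMIs in all, and the TAK-931 level there was 2.37% of the Fas level in the whole library. All 6 members that reached 10 UMIs in J558 cells, Fas not among them, were past 2-fold higher, where 12.4% of all genes counted were. Their TAK-931 levels there were low, between 4.43% (Gzmb) and 7.71% (Fasl) of the level in the whole library, where markers of other lineages stood at a median of 2.84%, and 59.2% of the Gzma UMIs lay in 1 cell. The part of free RNA in these values was not tested.

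In macrophages 7 of 8 members were past 2-fold higher, where 13.6% of all genes counted were. For the effector members this was a low level: Gzmb was at 7.78 CPM in the TAK-931 macrophages, 4.42% of its level in the whole library, and the 7 effector members lay between 1.60% (Gzmk) and 8.63% (Gzma) of theirs, with Nkg7 at 3.12%. Markers of other lineages stood at a median of 2.82% in the same gate, and the part of free RNA and of attached lymphocytes in these values was not tested. Fas, at 124% of its library level, did not share that range. For Gzmc and Fasl, which had no UMI in vehicle macrophages, the bound on a floor of 3 UMIs did not reach 1-fold, so their calls rest on the 0.5 UMI added.

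Other genes of the receiving side were described from the death receptor list. In J558 cells Cflar, an inhibitor of caspase-8, was at 75.7 CPM in vehicle and 71.1 CPM in TAK-931, Casp8 at 49.6 and 62.9 CPM and Bid at 18.3 and 26.3 CPM, and none of the 7 genes was past 2-fold, where 19.2% of all genes counted were. In macrophages none of the 7 was past 2-fold either, where 22.5% were. Serpinb9, the inhibitor of granzyme B, was at 0.122 and 7.40 CPM in J558 cells, 6.06 and 23.9 CPM in macrophages and 214 and 376 CPM in CD8 T cells. Markers of other lineages stood at a median of 4.51% of their library level in vehicle J558 cells and 2.84% in TAK-931 J558 cells, and the part of free RNA in the Serpinb9 values was not tested.

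Genes with the pattern most like that of Gzmb over 13 gate and library sums were Il2rb (Pearson r = 0.985), Txk (0.983), Sidt1 (0.983), Rundc3b (0.982) and Sytl3 (0.981), and of the members Nkg7 (0.981) and Prf1 (0.976) came closest and Fas was at 0.127. Those most like Fas were Ifi47 (0.969), B2m (0.966), Casp4 (0.940), Mndal (0.925) and H2-K1 (0.921). The sums come from 2 libraries and share their depth and free RNA, so these values are descriptions.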

How the data were processed

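Single-cell 3′ libraries (10x chemistry v3.1) of 1 vehicle and 1 TAK-931 J558 allograft were used. The deposited matrices hold raw UMI counts per gene and barcode, not normalized; the submitters' processing notes name Cell Ranger 6.0.0 and mm10, while the study's methods name a human build, and the features carry mouse identifiers. The libraries held 144767193 and 77369283 UMIs.

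Cells with over 2000 genes and under 15% mitochondrial UMIs, the limits of the study's methods, were gated by the mean of ln(1 + UMIs per 10000) over 8 marker lists. The thresholds (1, and 0.5 for NK and dendritic cells) were chosen after the score distributions were seen. CD8 T cells had Cd8a or Cd8b1 and neither Cd4 nor Foxp3, regulatory T cells had Foxp3 and no CD8, and CD4 T cells had Cd4 alone. Cells that reached 2 lineages (27 vehicle, 165 TAK-931) were left out, which was the only treatment of doublets, and T cells that also reached the NK list were kept as T cells. The members and lists were chosen with earlier results of these data known. All members were described in each gate, and other genes were named from 7 lists (43 genes), up to 4 a list by level in most places, apart from gate markers and the 5 genes most like Gzmb and the 5 most like Fas, searched among 14834 genes; the genes named for co-detection with Gzmb, and the receiving-side genes, were chosen after their values were seen.

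UMIs were summed per gate and scaled to CPM, with exact Poisson, Clopper-Pearson and conditional binomial intervals. Genes whose sums together reached 10 UMIs were called at a 2-fold difference, with 0.5 UMI added where a sum was 0. Shares at 4000 UMIs are means over all possible draws (hypergeometric). They were first computed from a single random draw, which was replaced after its co-detection values were found to move by several points with the draw; the expected values replaced it throughout. Likeness used log2(CPM + 5). Steps were tested on simulated data. Locations came from GENCODE M21 and upstream sequences from RefSeq. Python 3.11.15, numpy 2.4.6, scipy 1.17.1, pandas 2.3.3 and matplotlib 3.10.9 were used.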

Additional observations from a re-analysis of the deposited data

Results flagged for a closer look

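Gzmb differed in direction between CD8 T and NK cells: the log2 ratio of TAK-931 to vehicle was 0.82 in the CD8 T gate and −0.68 in the NK gate. The difference between the gates was not tested, since there was 1 library per group, and the NK value was 0.047 without the cell with the most Gzmb UMIs in each library, while the CD8 T value was 0.23 with cells of over 1000 genes and 0.29 with cells of over 500 genes. The share of CD8 T cells with Gzmb at 4000 UMIs was 71.0% in vehicle and 60.3% in TAK-931.

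Barcodes with over 500 and at most 2000 genes were outside the comparisons and also held effector transcripts. Gzmb was found in 54.2% (46.6 to 61.6) of 179 such barcodes in the TAK-931 CD8 T gate and in 9 of 12 in vehicle, and Gzma in 95.7% (89.5 to 98.8) of 94 in the TAK-931 NK gate and in 21 of 21 in vehicle. In the CD8 T gate Gzma stood at 2099 CPM in these barcodes, against 182 CPM in the kept cells.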

How the results depend on the processing

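No paired analysis was possible because there was 1 library per group and no result came from a test between replicates. Of 171 values of 19 results under other settings, 141 were within the counting interval of the reported value or, for counts of members, within 1.5 times the reported count, 27 moved outside it and 3 reversed; the cause was not tested. With cells of over 1000 and over 500 genes, the Gzmb log2 ratio was 0.23 and 0.29 in CD8 T cells and −0.35 and −0.42 in NK cells, and that of Gzma in NK cells reversed to −0.21 and −0.24. Without the top cell of each library the Gzmk ratio in CD8 T cells was 0.57, and in NK cells that of Gzmb reversed to 0.047 and that of Gzma was 0.046. A gate threshold 1.5 times higher gave −1.05 for Gzmb and 0.060 for Gzma in NK cells, scaling by the median ratio −0.23 and 0.69, and the mean of cell CPM −0.024 for Gzmb. The log2 ratio of NK over CD8 T cells in the TAK-931 library, run under other settings after seeing the data, was 5.76 for Gzma and −1.17 for Gzmk. It was 5.002 and −1.64 with cells of over 1000 genes and 4.999 and −1.65 with over 500 genes, and for Gzma 6.14 with the higher gate threshold and 5.98 without the top cell of each gate.

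Shares moved with the depth they were set at. At 2000 UMIs and without thinning, Gzmb was found in 48.9% and 74.4% of CD8 T cells and in 23.6% and 55.4% of regulatory T cells, Gzmk in 21.5% and 65.6% of CD8 T cells, and, among Gzmb-positive CD8 T cells, Prf1 in 33.3% and 78.0% and Gzmk in 20.04% and 68.0%. The single random draw at 4000 UMIs, an alternative added after seeing the data, gave 52.9% for Prf1 and 30.7% for Gzmk among Gzmb-positive CD8 T cells, against 48.2% and 34.1% over all draws. The Fas ratios in macrophages and J558 cells and both Prf1 ratios stayed within their intervals under each setting run. The count of members past 2-fold was 2 in CD8 T cells under each setting, 2 or 3 in NK cells, and 5 to 8 in macrophages, with 5 at a minimum of 50 UMIs.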
